A study of Homo sapiens with 6 samples.

Results

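Chemokine ligands are small secreted proteins that steer the movement of leukocytes, and 10 of their genes were followed in the T24 line of human bladder carcinoma cells. They are CXCL1, CXCL2, CXCL3, CXCL5, CXCL8, CXCL10, CXCL11, CCL2, CCL5 and CCL20, taken by name as ligands known to be driven by NF-kB or interferon, and each had a row among the 20030 genes of the table. The cells carried either a control labelled NC or a knockdown labelled sh-circRIMS1, directed at circRIMS1, a circular RNA whose name points to RIMS1 as the host gene. Each group had 3 libraries. No drug, dose or time is given for either group. Expression is given as FPKM, a fragment count scaled by transcript length and by library size, for RNA depleted of ribosomal RNA. The labels' protocols also list a digestion of linear RNA.

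Chemokines act through membrane-spanning receptors coupled to G proteins and are held on cell surfaces by glycosaminoglycans. CXC ligands with a Glu-Leu-Arg motif before the first cysteines, here CXCL1, CXCL2, CXCL3, CXCL5 and CXCL8, bind CXCR1 or CXCR2 and attract neutrophils. CXCL10 and CXCL11 lack that motif, bind CXCR3 and attract activated T cells and natural killer cells. Among the CC ligands, CCL5 binds CCR1 and CCR3 among others, CCL2 binds CCR2 on monocytes, and CCL20 binds CCR6. NF-kB, once kinases free it from its inhibitors, and the STAT and IRF factors of the interferon pathway are known to act on their promoters.

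Stretches before the starts of members are of interest because those factors are known to act there. They are shown for 6 members, chosen with the members' changes in these data known. RefSeq windows were found for 8 of the 10 members, all but CCL2 and CCL5, and those of CXCL3 and CXCL5 are not printed. Stretches of 230 bases that end just before the annotated start are printed 5′ to 3′ on the gene's strand (GRCh38.p14), with motif matches in capitals. They lie at chr4:76023498-76023727 (minus strand) for CXCL10, chr4:76036071-76036300 (minus strand) for CXCL11, chr2:227813612-227813841 (plus strand) for CCL20, chr4:73740339-73740568 (plus strand) for CXCL8, chr4:73869163-73869392 (plus strand) for CXCL1 and chr4:74099196-74099425 (minus strand) for CXCL2.
CXCL10: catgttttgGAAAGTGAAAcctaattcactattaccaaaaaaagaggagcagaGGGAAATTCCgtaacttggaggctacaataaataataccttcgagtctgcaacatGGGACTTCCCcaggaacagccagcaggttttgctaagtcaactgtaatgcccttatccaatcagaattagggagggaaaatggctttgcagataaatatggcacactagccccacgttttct
CXCL11: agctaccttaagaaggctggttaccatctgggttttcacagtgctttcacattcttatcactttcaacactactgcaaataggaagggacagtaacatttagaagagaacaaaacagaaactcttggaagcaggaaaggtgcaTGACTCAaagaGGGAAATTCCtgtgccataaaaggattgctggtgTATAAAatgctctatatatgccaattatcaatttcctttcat
CCL20: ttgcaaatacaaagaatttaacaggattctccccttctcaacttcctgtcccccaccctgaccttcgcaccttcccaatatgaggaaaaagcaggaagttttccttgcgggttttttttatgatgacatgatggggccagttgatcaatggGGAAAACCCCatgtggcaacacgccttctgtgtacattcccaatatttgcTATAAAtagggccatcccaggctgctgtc
CXCL8: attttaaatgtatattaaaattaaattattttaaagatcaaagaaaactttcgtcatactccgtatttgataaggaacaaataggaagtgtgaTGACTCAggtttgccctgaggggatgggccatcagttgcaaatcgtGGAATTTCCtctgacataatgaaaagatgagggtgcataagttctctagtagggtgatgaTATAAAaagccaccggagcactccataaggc
CXCL1: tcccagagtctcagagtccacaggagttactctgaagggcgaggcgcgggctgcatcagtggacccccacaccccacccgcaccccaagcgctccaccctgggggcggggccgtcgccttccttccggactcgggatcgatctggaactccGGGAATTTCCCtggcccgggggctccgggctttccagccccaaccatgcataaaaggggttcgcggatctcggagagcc
CXCL2: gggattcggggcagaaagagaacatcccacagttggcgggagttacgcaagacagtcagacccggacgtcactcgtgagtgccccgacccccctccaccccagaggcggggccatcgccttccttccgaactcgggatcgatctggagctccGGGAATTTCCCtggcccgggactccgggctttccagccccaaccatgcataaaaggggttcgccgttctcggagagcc

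Both strands of each 300-base window were searched for 5 motifs. The kappa-B consensus matched in 7 of the 8 windows, those of CXCL1, CXCL2, CXCL3, CXCL5, CXCL10, CXCL11 and CCL20, against 11.3% of all 35116 RefSeq windows of that length. A shorter kappa-B form, GGAANTTCC, which overlaps the consensus and was added after the windows had been seen, also matched in 7 windows, with CXCL8 in place of CCL20, against 0.965% of all windows. The interferon-stimulated response element core, which is GAAA, any 2 bases, then GAAA, matched in CXCL10 alone, from 221 to 212 bases before the start, against 3.57% of all windows. The AP-1 core TGANTCA matched in CXCL8 and CXCL11, against 7.71%, and the TATA box TATAAA in CXCL8, CXCL11 and CCL20, against 11.5%. CXCL1, CXCL2, CXCL3 and CXCL5 carry the same stretch, GGGAATTTCCC, whose last base lies 69, 68, 69 and 81 bases before their starts, and the 250 bases before the starts of CXCL1 and CXCL3 were 81.4% identical. These are matches of letters and no measure of binding.

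Before the ligands themselves, some facts of the whole series bear on their values. Among the sh-circRIMS1 libraries, replicate 2 stood apart. Over the 10408 genes whose mean reached 1 FPKM, which are not independent replicates, its Pearson's r with replicates 1 and 3 was 0.97 for both, against 0.997 between replicates 1 and 3. The ligand and pathway results are therefore also given without it. RIMS1, whose gene-level value cannot tell circular from linear RNA, stood at 0.426, 0.384 and 0.498 FPKM in NC and at 0.222, 0.240 and 0.308 FPKM in sh-circRIMS1, so the knockdown itself was not measured here. Of the epithelial and urothelial markers, KRT7 fell from 436 ± 9.27 to 298 ± 24.7 FPKM and KRT18 from 516 ± 9.99 to 372 ± 45.1 FPKM (SD, n = 3 each; limma adjusted p = 0.00159 and 0.00742). KRT8 measured 310 ± 7.07 and 199 ± 75.8 FPKM (SD, n = 3 each) without overlap and did not pass (limma adjusted p = 0.0904). EPCAM, CDH1, GATA3, UPK2 and KRT19 lay below 1 FPKM throughout and UPK1B was listed at 0. Of 10 leukocyte markers the T cell marker CD3E was listed at 0 in every library and PTPRC, the pan-leukocyte marker, reached at most 0.0494 FPKM. The summed level of those 10 ran from 5.05 to 6.15 FPKM in NC and from 17.4 to 24.3 FPKM in sh-circRIMS1, most of it CD68, and the part of these markers in the ligand changes was not tested.

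CCL5, CCL20 and CXCL10 were higher in the sh-circRIMS1 cells, and CXCL3 was higher by a smaller step, while the most abundant ligands, CXCL1 and CXCL8, were not past the threshold. With limma on log2(FPKM + 0.5) and Benjamini-Hochberg adjustment over all 10408 tested genes at 0.05, 4 of the 7 members above the mean filter of 1 FPKM were higher and 0 lower. The same fit called 25% of the tested genes higher and 12.7% lower. CXCL10 and CCL20, 2 of the 4, reached that filter only through their level in sh-circRIMS1, so the count is a description. CXCL5, CXCL11 and CCL2 lay below the filter and were compared with an exact two-sided permutation test, whose smallest p for 3 against 3 libraries is 0.1.

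**Figure D1:**
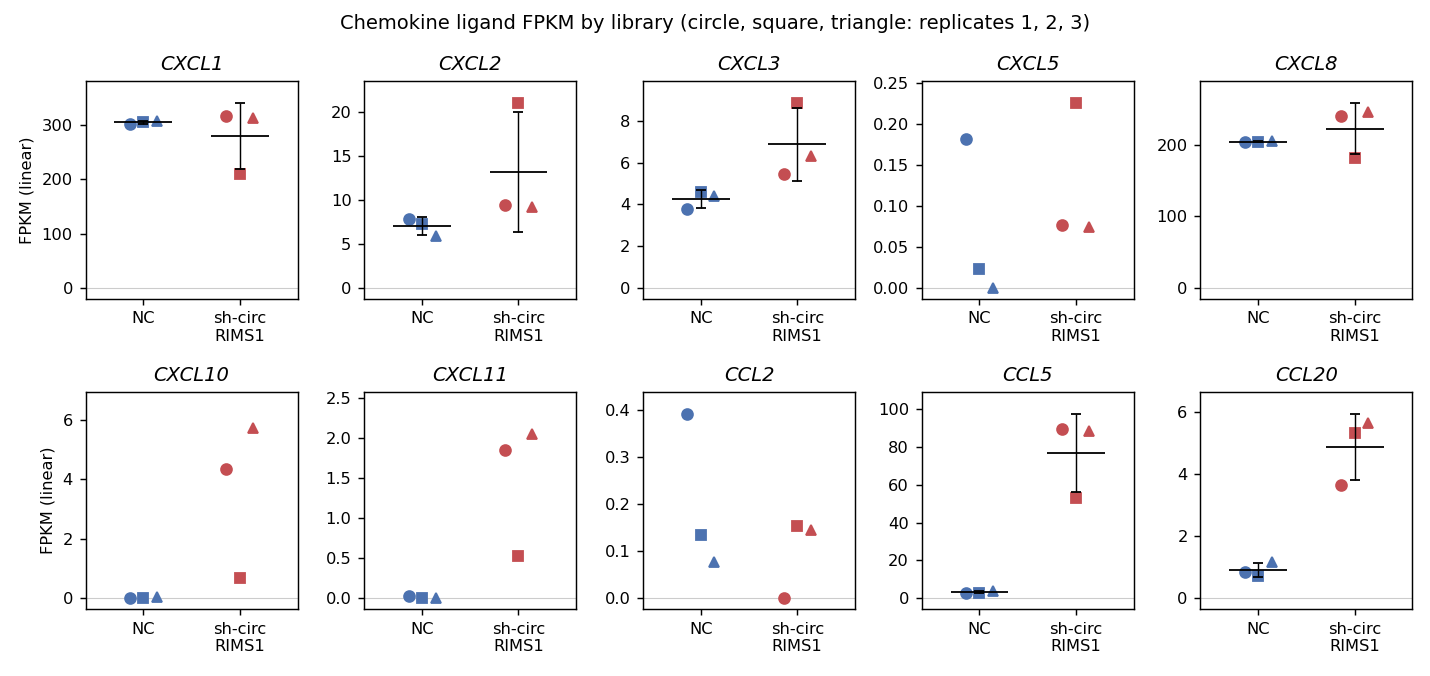
FPKM of the 10 ligands in each library, on a linear axis that differs between panels, with replicates 1, 2 and 3 as circle, square and triangle. Horizontal lines and bars give the mean and SD of 3 libraries where no library was at 0. CCL5 lies between 2.95 and 3.71 FPKM in NC and between 53.1 and 89.3 FPKM in sh-circRIMS1, whereas CXCL1 and CXCL8 overlap between the groups.

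CCL5, also known as RANTES, is a ligand that recruits T cells, monocytes and eosinophils. It measured 2.95, 2.95 and 3.71 FPKM in NC replicates 1, 2 and 3 and 89.3, 53.1 and 88.2 FPKM in sh-circRIMS1 replicates 1, 2 and 3. All 3 knockdown libraries were far above all 3 controls, and replicate 2 was the lowest of them. The means were 3.21 ± 0.439 and 76.9 ± 20.6 FPKM (SD, n = 3 each), a 24.0-fold difference. On the log2 scale it was 4.35 higher (SE 0.21, 95% interval 3.86 to 4.85, limma adjusted p = 5.98e-05). Without replicate 2 it was 4.60. In these bulk libraries, more cells that make CCL5 RNA and more CCL5 RNA per cell cannot be told apart.

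CCL20 draws CCR6-bearing dendritic cells and lymphocytes to epithelia. Its FPKM was 0.857, 0.728 and 1.17 in NC and 3.65, 5.33 and 5.65 in sh-circRIMS1. The groups did not overlap, and here replicate 2 was not the lowest library. On the log2 scale CCL20 was 1.91 higher (SE 0.18, 95% interval 1.48 to 2.35, limma adjusted p = 0.000555), or 1.85 without replicate 2. The means of 0.917 ± 0.226 and 4.88 ± 1.07 FPKM (SD, n = 3 each) differed 5.32-fold.

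CXCL10 and CXCL11 were near or at 0 in the control cells. CXCL10 was listed at 0, 0 and 0.0410 FPKM in NC and at 4.36, 0.690 and 5.74 FPKM in sh-circRIMS1. Every knockdown library was above every control, with replicate 2 at 0.137 times the mean of replicates 1 and 3. On the log2 scale CXCL10 was 2.69 higher (SE 0.58, 95% interval 1.31 to 4.07, limma adjusted p = 0.0121), or 3.42 without replicate 2. With controls so close to 0 this size hangs on the added constant, being 4.61 with 0.1 and 1.96 with 1, and no fold is given.

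CXCL11 had the same order of sh-circRIMS1 libraries as CXCL10, at a lower level. It was listed at 0.0306, 0 and 0 FPKM in NC and at 1.85, 0.532 and 2.05 FPKM in sh-circRIMS1, again without overlap and again lowest in replicate 2 among the knockdown libraries. The exact permutation p was 0.1, the smallest possible. When no filter on low values was used, limma gave CXCL11 an adjusted p of 0.0138. CXCL9, another CXCR3 ligand whose gene lies in the same cluster, was listed at 0 in all 6 libraries.

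CXCL3 and CXCL2, neutrophil attractants that bind CXCR2, were low compared with CXCL1. CXCL3 measured 3.76, 4.62 and 4.40 FPKM in NC and 5.44, 8.87 and 6.33 FPKM in sh-circRIMS1, with no overlap and replicate 2 the highest. It was 0.61 higher on the log2 scale (SE 0.17, 95% interval 0.20 to 1.02, limma adjusted p = 0.0301), or 0.42 without replicate 2 (limma adjusted p = 0.00327). The call was lost without any 1 of the NC libraries (adjusted p from 0.0677 to 0.107), without sh-circRIMS1 replicate 3 (0.0589), under quantile normalization (0.0687) and with no filter (0.0540).

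CXCL2 measured 7.81, 7.23 and 5.82 FPKM in NC and 9.34, 20.9 and 9.12 FPKM in sh-circRIMS1. The groups did not overlap, but replicate 2 was 2.27 times the mean of the other knockdown libraries. The log2 change was 0.77 with a 95% interval from 0.04 to 1.51 and did not pass the threshold after adjustment (limma adjusted p = 0.0916). Without replicate 2 the change was smaller, 0.39, and passed (limma adjusted p = 0.00781).

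CXCL1 and CXCL8 were the most abundant members, with CXCL1 ahead of CXCL8 in every library. CXCL1, first known as a melanoma growth-stimulating factor, measured 303, 306 and 308 FPKM in NC and 318, 210 and 313 FPKM in sh-circRIMS1. Replicates 1 and 3 were slightly above the controls and replicate 2 below them. The log2 change was -0.15 (95% interval -0.52 to 0.22, limma adjusted p = 0.470), and 0.04 without replicate 2 (limma adjusted p = 0.103).

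CXCL8, or interleukin-8, the main human neutrophil attractant, measured 204, 205 and 206 FPKM in NC and 242, 182 and 246 FPKM in sh-circRIMS1. The spread between the controls was small, with an SD of 0.904 against 35.7 FPKM in the knockdown group. The log2 change was 0.11 (95% interval -0.16 to 0.38, limma adjusted p = 0.479), and its sign turned to -0.02 under scaling by the median of ratios. Without replicate 2 CXCL8 was higher by 0.25 on the log2 scale (limma adjusted p = 1.39e-05). In that fit 6 of the 7 tested members were higher, CXCL1 being the exception, and 36.8% of all tested genes.

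**Figure D2:**
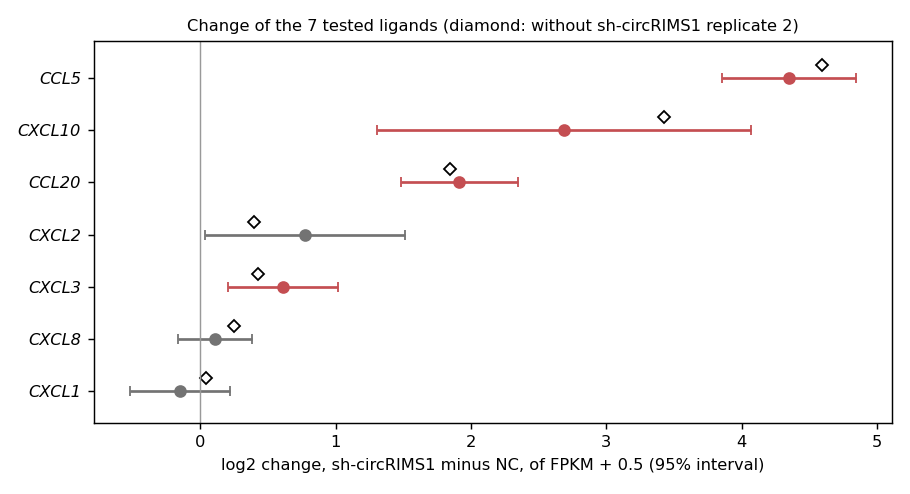
Log2 change of FPKM + 0.5, sh-circRIMS1 minus NC, for the 7 ligands above the filter, as points with 95% intervals from limma, red where past the threshold. Open diamonds give the change without sh-circRIMS1 replicate 2: they shift to 0.39 for CXCL2 and to 0.25 for CXCL8.

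CXCL5 and CCL2 stayed near 0 in both groups. CXCL5, a neutrophil attractant of epithelial cells, was listed at 0.182, 0.0222 and 0 FPKM in NC and at 0.0760, 0.225 and 0.0736 FPKM in sh-circRIMS1 (exact permutation p = 0.5). CCL2, the monocyte attractant also called MCP-1, was listed at 0.391, 0.134 and 0.0773 FPKM in NC and at 0, 0.153 and 0.145 FPKM in sh-circRIMS1 (exact permutation p = 0.6). The groups overlapped for both, and no difference was detectable at levels this low.

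The ligands' shares of their summed level differed between the groups. FPKM is per transcript length, so levels were set side by side. The effect of the listed digestion of linear RNA on them is not known. The shares, and the orders of level given below, therefore describe these libraries and need not match messenger abundance in the cells. CXCL1 held 57.9% to 58.2% of the summed FPKM of the 10 ligands in the NC libraries and 43.6% to 47.2% in the sh-circRIMS1 libraries. CCL5 held 0.560% to 0.701% in NC and 11.01% to 13.3% in sh-circRIMS1, where it came next after CXCL1 and CXCL8. CXCL8 held 38.9% to 39.0% and 35.9% to 37.8%. The sum itself was 523, 527 and 530 FPKM in NC and 673, 482 and 676 FPKM in sh-circRIMS1, so replicate 2 fell below the controls and replicates 1 and 3 lay above them.

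**Figure D3:**
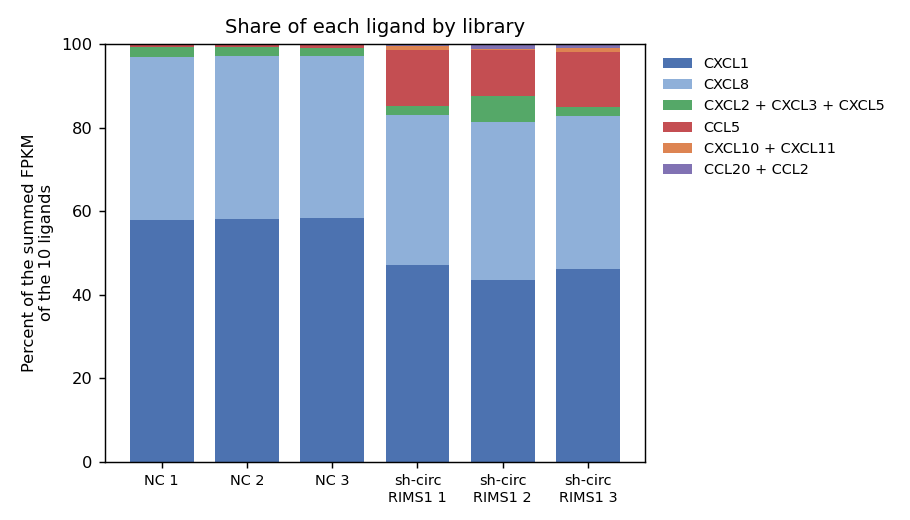
Percent of the summed FPKM of the 10 ligands held by each ligand or group of ligands in each library, as stacked bars from 0 to 100. CXCL2, CXCL3 and CXCL5 form a single segment. CCL5 grows from at most 0.701% in the NC libraries to at least 11.01% in the sh-circRIMS1 libraries, while CXCL1 and CXCL8 remain the first and second.

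The order of levels in NC was CXCL1, CXCL8, CXCL2, CXCL3, CCL5 and CCL20, followed by the 4 ligands near 0. Neighbours in this order down to CCL20 did not overlap between the 3 NC libraries. The ranges of CCL2 and CXCL5 did overlap, as did those of CXCL5, CXCL10 and CXCL11. In sh-circRIMS1 the order was CXCL1, CXCL8, CCL5, CXCL2, CXCL3, CCL20, CXCL10, CXCL11, CXCL5 and CCL2. There CXCL1 with CXCL8, CXCL3 with CCL20, CCL20 with CXCL10, CXCL10 with CXCL11, and CXCL5 with CCL2 overlapped in range.

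Within the knockdown group, replicate 2 split the ligands. It was below both other libraries for CXCL1, CXCL8, CXCL10, CXCL11 and CCL5, and above both for CXCL2, CXCL3, CXCL5 and CCL2. The ratio of CXCL1 to CXCL2 was 38.8, 42.3 and 53.0 in NC and 34.0, 10.0 and 34.3 in sh-circRIMS1. CXCL1, CXCL2 and CXCL3 are close paralogs, and the sources used here do not say how reads shared between them were counted. Their separate levels are uncertain to that extent.

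The CXC members all lie in clusters on chromosome 4, and neighbouring genes differed widely in level. In the order of the RefSeq annotation (GRCh38.p14), CXCL8, CXCL6, PF4V1, CXCL1, PF4, PPBP, CXCL5, CXCL3 and CXCL2 follow each other. PF4V1 and PPBP were listed at 0 in all libraries and PF4 reached 0.0574 FPKM in a single library. CXCL6, a neutrophil attractant between CXCL8 and PF4V1, measured 45.7, 46.9 and 47.9 FPKM in NC and 65.2, 22.4 and 64.7 FPKM in sh-circRIMS1. Like CXCL1 it was above the controls in replicates 1 and 3 and below them in replicate 2, and it did not pass the threshold (limma adjusted p = 0.948). Without replicate 2 its log2 change was 0.47 and passed. Next to CXCL2, MTHFD2L fell from 1.33 ± 0.0565 to 0.827 ± 0.0916 FPKM (SD, n = 3 each; limma adjusted p = 0.0113). In the second cluster, ART3 lies between CXCL9 and CXCL10. It reached 0.00920 FPKM in a single library and was listed at 0 in the others. NUP54, the next gene after CXCL11, measured between 7.51 and 8.52 FPKM in the 6 libraries. SCARB2, which follows NUP54, rose from 18.4 ± 0.878 to 26.8 ± 0.440 FPKM (SD, n = 3 each; limma adjusted p = 0.000864). NAAA and SDAD1, which lie before CXCL9, did not pass.

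**Figure D4:**
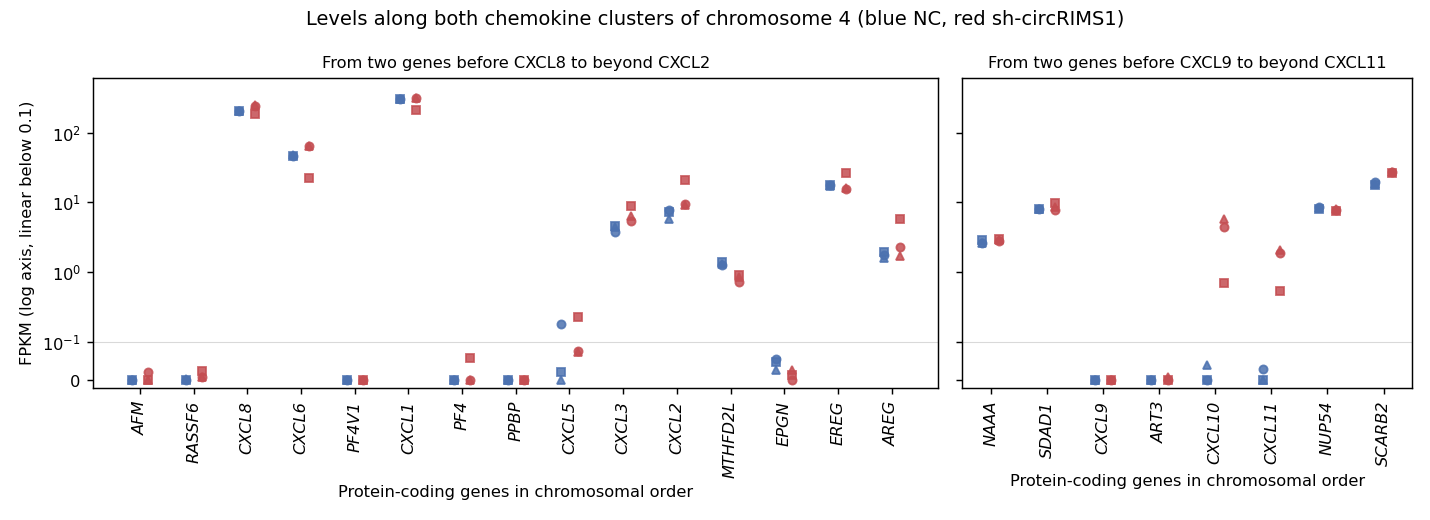
FPKM of protein-coding genes in chromosomal order along both chemokine clusters of chromosome 4, on a log axis that is linear below 0.1, with NC in blue and sh-circRIMS1 in red and replicates 1, 2 and 3 as circle, square and triangle. CXCL10 and CXCL11 leave the floor in sh-circRIMS1 between CXCL9 and ART3, which stay at or near 0, and NUP54, with a level between 7.51 and 8.52 FPKM in all libraries.

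Of 34 other chemokine ligands, 20 were listed at 0 in every library and 2 passed the filter. CXCL16, a membrane-bound ligand of CXCR6, rose from 2.98 ± 0.276 to 6.88 ± 1.98 FPKM (SD, n = 3 each), 1.05 on the log2 scale (limma adjusted p = 0.00724). The other was CXCL6. CCL28, a mucosal ligand of CCR10, measured 0.616, 0.470 and 0.565 FPKM in NC and 0.838, 0.660 and 0.689 FPKM in sh-circRIMS1 without overlap (exact permutation p = 0.1).

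Receptors were scarce. Of 23 chemokine receptor genes 9 were listed at 0 in every library and 2 passed the filter. CCR10, the receptor of CCL27 and CCL28, rose from 1.33 ± 0.389 to 2.88 ± 0.681 FPKM (SD, n = 3 each; limma adjusted p = 0.0151). That call was lost under quantile normalization. CXCR4, the receptor of CXCL12, was listed at 0, 0 and 0.0942 FPKM in NC and at 2.12, 0.323 and 1.63 FPKM in sh-circRIMS1 without overlap (exact permutation p = 0.1). CXCR2, which binds the neutrophil attractants, reached at most 0.0282 FPKM, and CXCR1, CXCR3, CCR2 and CCR3 were listed at 0 throughout. CCR1 and CCR6 reached at most 0.0172 and 0.0270 FPKM.

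Genes of the interferon pathway, which drives CXCL10 and CXCL11 in other settings, were mostly higher. Of 24 tested interferon signalling genes 19 were higher and 0 lower, with a median log2 change of 0.61 against 0.06 over all tested genes. Of all tested genes 25% were called higher and 12.7% lower. IRF5, 1 of the 19, reached the filter only through its level in sh-circRIMS1. Its means were 0.641 ± 0.157 FPKM in NC and 1.92 ± 0.834 FPKM in sh-circRIMS1 (SD, n = 3 each). IFIH1, a sensor of double-stranded RNA, rose from 2.78 ± 0.127 to 40.6 ± 13.5 FPKM and IRF7, a transcription factor of interferon induction, from 11.04 ± 0.826 to 74.6 ± 19.5 FPKM (SD, n = 3 each). IRF1, another factor known to act on chemokine promoters, rose from 7.16 ± 0.258 to 19.9 ± 1.20 FPKM (SD, n = 3 each; limma adjusted p = 5.49e-05). Without replicate 2, 19 of 23 tested were higher and 1 lower, against 36.8% and 23.9% of all genes in that fit, and scaling by the median of ratios called 2 genes of this list lower. The interferon genes were below the filter: IFNB1 was listed at 0 in all NC libraries and at 0.306, 0 and 0.197 FPKM in sh-circRIMS1. IFNL1 was listed at 0.154, 0.0661 and 0.0774 FPKM in NC and at 2.05, 0.378 and 2.40 FPKM in sh-circRIMS1 (exact permutation p = 0.1).

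Genes of the NF-kB pathway moved in part. Of 23 tested, 7 were higher and 2 lower, and the other 14 did not pass, with a median log2 change of 0.19. The share higher, 30.4%, was near the 25% of all tested genes. NFKBIZ, an atypical IkB protein, rose from 15.5 ± 0.533 to 51.2 ± 11.6 FPKM, TNIP1, a partner of A20, from 15.02 ± 0.268 to 32.0 ± 1.59 FPKM and NFKBIA, the IkB-alpha inhibitor, from 85.7 ± 0.618 to 131 ± 19.6 FPKM (SD, n = 3 each). TNFAIP3, the A20 gene, and BCL3 were also called higher (limma adjusted p = 0.000124 and 0.00119). Their log2 changes were 0.98 and 0.64. Not every inhibitor of the list was called, as NFKBIB, NFKBIE and NFKBID did not pass (limma adjusted p = 0.580, 0.147 and 0.356). The kinases MAP3K7 and MAP3K14 fell by 0.26 and 0.28 on the log2 scale. Leaving out any 1 of the NC libraries left 0 of the list called lower, where 6.55% to 6.62% of all tested genes were. Without sh-circRIMS1 replicate 2 the list had 8 higher and 3 lower, where 36.8% and 23.9% of all tested genes were. RELA measured 32.1, 32.7 and 31.5 FPKM in NC and 32.2, 39.2 and 33.2 FPKM in sh-circRIMS1 (limma adjusted p = 0.310).

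Among 14 tested upstream cytokines, receptors and adaptors known to induce these ligands, 7 were higher and 2 lower, with a median log2 change of 0.32, beside 25% and 12.7% of all tested genes. TLR3, the endosomal receptor for double-stranded RNA, rose from 1.08 ± 0.237 to 3.60 ± 0.724 FPKM and its adaptor TICAM1 from 9.24 ± 0.195 to 12.5 ± 0.322 FPKM (SD, n = 3 each). LTBR, a receptor of the non-canonical NF-kB pathway, rose by 0.43 on the log2 scale. TLR4, the lipopolysaccharide receptor, fell from 24.4 ± 0.550 to 15.05 ± 4.87 FPKM (SD, n = 3 each; limma adjusted p = 0.0435), and IRAK1, a kinase below it, fell by 0.33 on the log2 scale. Leaving out any 1 of the NC libraries left 1 gene of this list lower, beside 6.55% to 6.62% of all genes. Without sh-circRIMS1 replicate 2 there were 9 higher and 3 lower, beside 36.8% and 23.9% of all genes. Of the cytokines, TNF was called higher, from 16.3 ± 0.775 to 20.9 ± 1.76 FPKM (SD, n = 3 each; limma adjusted p = 0.0132). IL1B, a strong inducer of CXCL8, measured 295, 300 and 305 FPKM in NC and 321, 389 and 324 FPKM in sh-circRIMS1 (limma adjusted p = 0.104). IL1A measured 118, 118 and 119 FPKM in NC and 76.5, 158 and 83.2 FPKM in sh-circRIMS1 (limma adjusted p = 0.482). Without replicate 2 the log2 changes of IL1B and IL1A were 0.10 and -0.57, and both passed (limma adjusted p = 0.00353 and 1.30e-06).

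Chemokine messengers such as CXCL1, CXCL2 and CXCL8 carry AU-rich elements, through which decay factors are known to shorten their life. The list called decay factors here is mixed: it includes the stabilising ELAVL1, and not all of its members bind AU-rich elements. Of its 14 tested genes, 3 were higher and 4 lower, with a median log2 change of -0.08. Over all tested genes 25% were called higher and 12.7% lower. ZC3H12A, the endonuclease Regnase-1, rose from 11.2 ± 0.417 to 28.5 ± 0.308 FPKM (SD, n = 3 each; limma adjusted p = 3.47e-05). ZFP36, tristetraprolin, rose by 0.38 on the log2 scale with overlapping groups (limma adjusted p = 0.0476). The stabilising protein ELAVL1 and the decay factor KHSRP fell by 0.29 and 0.24 on the log2 scale. Leaving out any 1 of the NC libraries left 1 factor higher and at most 1 lower. In those fits 15.6% to 15.8% of all genes were called higher and 6.55% to 6.62% lower. Scaling by the median of ratios gave 1 higher and 7 lower, with 17.2% and 23.4% of all genes called. Without sh-circRIMS1 replicate 2 there were 4 higher and 6 lower, with 36.8% and 23.9% of all genes called.

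**Figure D5:**
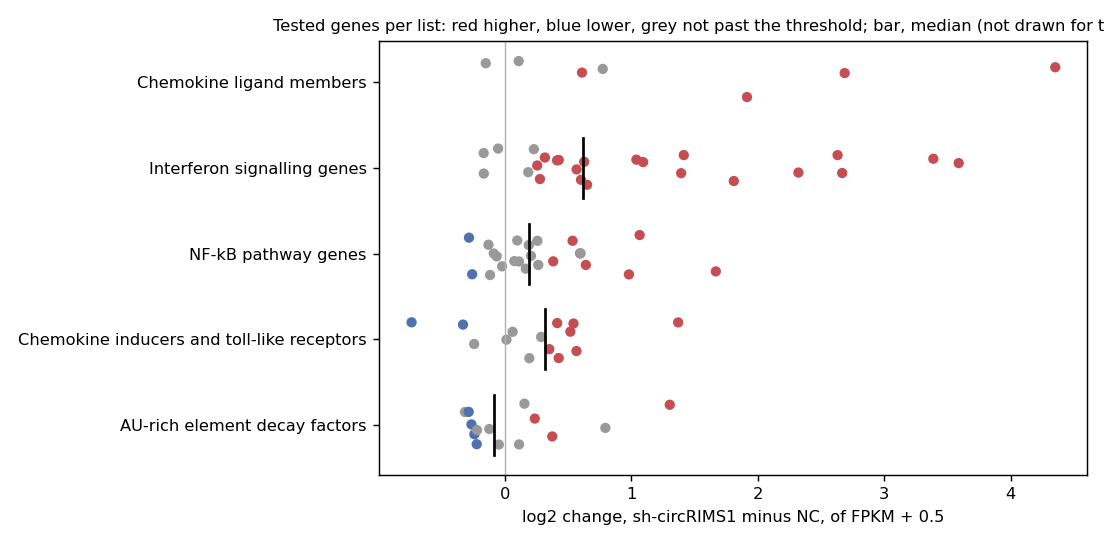
Log2 change of FPKM + 0.5, sh-circRIMS1 minus NC, for the tested genes of each list, with genes higher past the threshold in red, lower in blue and others in grey. Black bars are list medians, at 0.61 for interferon signalling genes, 0.19 for NF-kB pathway genes, 0.32 for inducers and -0.08 for AU-rich element decay factors. The last list includes the stabilising ELAVL1, and points are spread vertically for legibility.

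The genes with the most similar patterns over the 6 libraries were named by Pearson's r of log2(FPKM + 0.5), as a description, since the points fall into the same groups. Nearest to CCL5 were HELZ2, an interferon-induced helicase, TIMP1, an inhibitor of metalloproteinases, and ADAP1. HELZ2 measured 8.95, 9.40 and 10.0 FPKM in NC and 61.4, 46.4 and 60.7 FPKM in sh-circRIMS1. Nearest to CXCL10 were PLK2, WARS, the interferon-inducible tryptophanyl-tRNA synthetase, and FZD8, and WARS measured 46.3, 47.5 and 48.2 FPKM in NC and 124, 67.6 and 127 FPKM in sh-circRIMS1. Nearest to CXCL8 were FMR1, AKAP1 and SCD. SCD, the stearoyl-CoA desaturase, measured 16.8, 16.9 and 15.9 FPKM in NC and 44.5, 7.76 and 45.5 FPKM in sh-circRIMS1. All 9 had an r of at least 0.997 over 6 libraries.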

How the data were processed

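RNA sequencing of 6 T24 libraries was analysed, 3 per group, grouped by sample title. The authors deposited gene-level FPKM. Trimmomatic, HISAT2, Cufflinks, HTSeq, DESeq and StringTie are named, per the submitters' processing notes, and the sources used here do not give their roles and versions, the genome build, strand use or the handling of shared reads. Column names carry an si prefix where titles carry sh, and were matched by circ name and number. FPKM values are no counts and were not given to a count model. Depth in reads is unknown, so no counting interval is given. Low FPKM values, below 0.3, placed relative depths at 1.01 to 1.17 times that of NC replicate 1.

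The 10408 of 20030 genes whose mean reached 1 FPKM were tested on log2(FPKM + 0.5) with limma 3.58.1 (R 4.3.3), with a variance trend on mean level, group as the only term and two-sided Benjamini-Hochberg adjustment over all tested genes at 0.05. Changes are sh-circRIMS1 minus NC on that scale, which understates those of low genes. Members below the filter were given an exact permutation test. The test was checked on simulated data. The members, the lists and the tests were chosen with earlier results of these data known. Every member is named. Of the other lists, genes were named from the called ones with the smallest p, up to 5 in each direction. Some that qualified are left out, IRF9 among them. RELA, NFKBIB, NFKBIE, NFKBID, IRF5, TNF, IL1A, IL1B and genes below the filter were named outside that rule, after their values were seen. Alternatives covered pseudocounts of 0.1 and 1, the filter (none, or 5), scaling by the median of ratios, quantile normalization, rescaling to TPM, array weights, a replicate block and leaving out each library. Whether the replicates are separate cultures is not in the labels. The p-values then reflect the spread of these libraries alone, which may be technical.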

Additional observations from a re-analysis of the deposited data

How the results depend on the processing

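CCL5 was higher in all 15 alternatives, with a log2 change from 4.18 to 4.60. CCL20 and CXCL10 were higher in the 14 in which they were tested, from 1.61 to 2.29 and from 1.96 to 4.61. At a mean FPKM of at least 5 both fell out, which left 2 members higher. Leaving out 1 library gave 3 to 6 members higher, beside 15.6% to 36.8% of all tested genes. The 6 came without sh-circRIMS1 replicate 2. With array weights 6 were also higher, where 38.3% of all tested genes were. With no filter CXCL3 lost its call and CXCL11 gained one, and after rescaling to TPM CXCL11 was called too, making 5 members. No member was lower in any alternative, and the cause of these shifts was not tested except where a stricter filter removed the gene.

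Over all genes, 1469 were higher at a mean of at least 5, 1590 under quantile normalization and 3983 with array weights, and 1630 to 3803 when leaving out 1 library. Lower were 2429 under the median of ratios, 2102 under quantile normalization and 2424 with array weights, and 685 to 2474 when leaving out 1 library, the highest without sh-circRIMS1 replicate 2. The median of ratios moved the median change of all genes from 0.06 to -0.06 and turned the split from 25% higher and 12.7% lower to 17.2% higher and 23.4% lower. Quantile normalization gave 15.3% higher and 20.2% lower. Array weights gave 38.3% and 23.3%, no filter 20.8% and 7.81%, and a mean of at least 5 21.0% and 16.0%. Rescaling to TPM gave 27.5% and 10.6%. Leaving out 1 library gave 15.6% to 36.8% higher and 6.55% to 23.9% lower. The list counts below are to be read beside these shares.

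Other ligands had 0 higher at a mean of at least 5 and 2 with array weights, and 1 to 2 when leaving out 1 library. Receptors had 3 higher with no filter, 0 at a mean of at least 5 and under quantile normalization, and 2 after rescaling to TPM and with array weights, with 1 to 2 when leaving out 1 library. NF-kB genes lower were 1 at a mean of at least 5, 4 under the median of ratios and with array weights, and 0 to 3 when leaving out 1 library. Interferon signalling genes lower were 2 under the median of ratios and quantile normalization, 1 with array weights, and 0 to 1 when leaving out 1 library. Decay factors higher were 1 with no filter, under the median of ratios and under quantile normalization, and 1 to 4 when leaving out 1 library. Decay factors lower were 7 under the median of ratios and 0 to 6 when leaving out 1 library. Inducers had 11 higher and 1 lower with no filter, and 6 to 9 higher and 1 to 3 lower when leaving out 1 library.

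Same-numbered libraries showed no shared deviation from their group means (r = -0.03, -0.00335 and -0.04 over genes). With 3 libraries per group this cannot exclude a pairing, and the main fit used none. The replicate block gave 4 members higher, 0 NF-kB genes lower and 1 decay factor lower. Of all tested genes it called 20.6% higher and 9.57% lower. Unknown absolute depth limits what can be said of CXCL5, CXCL11 and CCL2.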
